A study of Mus musculus with 118 samples.

Results

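*Kcnc1*, *Kcnc2* and *Kcnc4* encode the Kv3 potassium channel subunits Kv3.1, Kv3.2 and Kv3.4, and are 3 of the 23998 gene symbols counted in single cells of mouse cortex. They were chosen by name, as channels of fast firing. The RNA came from Patch-seq, a method that draws the cytosol of a neuron into the recording pipette once its electrical behaviour is known. All cells were from adult SOM-Cre/Ai9 mice, in which Cre recombinase under the somatostatin gene switches on the red protein tdTomato, so that a labelled cell expresses *Sst* or did so earlier in life. The line also marks some fast-spiking cells, and the label alone does not separate them from somatostatin-positive (SOM+) cells. The cells lay in layer 4 (L4) or layer 5 (L5) of the primary visual cortex (V1) or the primary somatosensory cortex (S1), and no cell received a treatment that the labels name.

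A cell was kept as SOM+ if it had 1500 or more detected genes, a *Slc17a7* count not above the sum of *Gad1* and *Gad2*, and at least 1 *Sst* read. In L4 this kept 42 of 44 cells of V1 and 34 of 39 of S1, and in L5 it kept 17 of 19 cells of V1 and all 16 of S1. The cells left out were 4 with fewer genes, 1 glutamatergic cell and 4 that passed the first 2 criteria but had no *Sst* read, which are described apart. The total count of a kept cell ran from 97904 to 3295232, with a median of 1111833. The summed level of 8 markers of SOM interneurons was between 1242 and 16002 CPM, the count scaled to the total of the cell, in every kept cell. The 8 include *Sst*, *Gad1* and *Gad2*, which the criteria used, and the 4 cells without *Sst* reads summed to between 2037 and 6753 CPM. The sum therefore does not separate SOM+ cells from those 4. The median over the cells of each area and layer of 5 excitatory markers was 0 CPM. The labels name no animal, so an area and layer is 1 sample and no test was made over its cells. The labels date each cell, and these dates made up 9 recording days in 2 series, with L5 recorded in the first series alone. A difference is therefore given with the values within recording days, which may share an animal.

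Kv3 channels open at strongly depolarized voltages and close very quickly once the membrane repolarizes. They shorten the action potential and leave sodium channels ready for the next one, which allows sustained firing at high rates, and they are best known from fast-spiking parvalbumin basket cells. Kv3.1 and Kv3.2 pass sustained currents and assemble with each other into mixed tetramers. Kv3.4 inactivates rapidly and can lend this property to a mixed channel. Kv3.2 is known in SOM interneurons as well as in basket cells.

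The 3 genes share the pore, so reads from one could in principle be counted on another. The pore stretch is shown as a part that the 3 genes share, and conservation along the rest of the genes was not measured. Below are 60 coding bases of each gene on GRCm38 (mm10), in GENCODE release M21, each inside 1 coding exon and read 5′ to 3′ on the strand of the gene. The capitals mark the 6 codons of the potassium selectivity signature, the ring of residues through which the ion passes.
Kcnc1, chr7:46427952-46428011, plus strand: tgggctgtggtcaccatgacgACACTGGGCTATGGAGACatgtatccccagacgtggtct
Kcnc2, chr10:112456208-112456267, plus strand: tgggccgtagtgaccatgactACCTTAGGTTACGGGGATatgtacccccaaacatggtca
Kcnc4, chr3:107447775-107447834, minus strand: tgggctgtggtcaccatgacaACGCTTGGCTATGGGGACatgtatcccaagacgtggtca

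In this stretch *Kcnc1* was identical to *Kcnc4* at 54 of the 60 bases and to *Kcnc2* at 45. *Kcnc2* and *Kcnc4* had 46 bases in common. The reads were 75 bases long. Of all 75-base windows in the annotated transcripts of *Kcnc1* (9383 windows), *Kcnc2* (7207) and *Kcnc4* (3593), 0 occurred exactly in a transcript of another gene. A read without mismatches thus belonged to 1 member only. The genes span chromosome 7 from 46396497 to 46438704 (*Kcnc1*), chromosome 10 from 112271121 to 112467024 (*Kcnc2*) and, on the minus strand, chromosome 3 from 107438303 to 107459552 (*Kcnc4*).

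*Kcnc1* had reads in all but 3 of the kept SOM+ cells (97.2%, 95% Clopper-Pearson interval 92.2 to 99.4). In V1 L4 its level ran from 1.61 to 10.27 on the log2(CPM + 1) scale, with a median of 7.26, and all 42 cells had reads. In S1 L4 it ran from 0 to 9.67 with a median of 8.26. The L5 cells of V1 lay between 5.28 and 9.57 (median 7.41), and those of S1 between 4.70 and 9.37 (median 8.08). The groups overlapped almost throughout, and the S1 medians lay above the V1 medians in both layers. The spread was wide in L4 and narrower in L5. The mean level in L4 was 6.88 ± 1.94 (SD over cells, n = 42) in V1 and 7.47 ± 2.49 (n = 34) in S1, and in L5 it was 7.44 ± 1.05 (n = 17) and 7.77 ± 1.23 (n = 16).

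The wide spread had a different form in the 2 areas of L4. In V1 L4 the low values tailed off gradually, from the first quartile at 6.42 down to 1.61, all with *Kcnc1* reads. In S1 L4, 31 cells lay between 6.41 and 9.67, and the other 3 had no *Kcnc1* read at all. The mean over the 31 cells with reads was 8.19 ± 0.84. The 3 cells without reads came from recording days 2 and 3 and had total counts of 790437, 932275 and 739890, so that up to 3.80, 3.22 and 4.05 CPM of *Kcnc1* could go unseen (3 counts). One of them had no read of any of the 3 members, another had 72 counts of *Kcnc2*, and the last had 91 counts of *Kcnc4*. None of the 3 had a *Pvalb* read. They held a median of 4496 detected genes, against 7048 in the S1 L4 cells with *Kcnc1* reads, and the part of this lower yield in the result was not tested.

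*Kcnc2* was nearly as widespread, with reads in 98 cells (89.9%, interval 82.7 to 94.9). Its level reached 9.89 in V1 L4 around a median of 8.18, and 9.54 in S1 L4 around a median of 7.99. The highest L5 cells were at 10.41 in V1 and 9.89 in S1, where the medians were 8.54 and 9.05, and the lowest value was 0 in each group. Each group held at least 1 cell without reads, and the medians of L5 lay above those of L4. The mean level in L4 was 7.25 ± 2.68 in V1 and 6.83 ± 3.05 in S1, and in L5 it was 7.65 ± 2.51 and 8.22 ± 2.37. The cells without *Kcnc2* reads numbered 4 in V1 and 5 in S1 for L4, and 1 in each area for L5, and their depths set a floor of between 2.47 and 23.4 CPM. All but 2 of these 11 cells had *Kcnc1* reads, from 55 to 531 counts. The median total count was 892351 in the cells without *Kcnc2* reads and 1224334.5 in the others, with 4496 and 6814 detected genes, and the part of this difference in the result was not tested. With every cell thinned to 250000 reads, which left out 3 cells as too shallow, *Kcnc2* was found in 96 cells (90.6%).

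*Kcnc4* was present in a subset of cells. It had reads in 50 of the kept cells (45.9%, interval 36.3 to 55.7). In L4 these were 12 of 42 cells in V1 (28.6%, interval 15.7 to 44.6) and 16 of 34 in S1 (47.1%, 29.8 to 64.9). In L5 they were 10 of 17 cells in V1 (58.8%, 32.9 to 81.6) and 12 of 16 in S1 (75%, 47.6 to 92.7). The share was thus higher in L5 than in L4 and in S1 than in V1, and the intervals of each pair of neighbours in that order overlapped. The interval of V1 L4 over both series ended below the lower bound of S1 L5. In the first series alone, which held all L5 cells, V1 L4 was at 28.6% (11.3 to 52.2), overlapping S1 L5. Cells of a group are not replicates, so these intervals do not compare areas or layers. The median level on the log2(CPM + 1) scale was 0 in both L4 groups, 3.83 in V1 L5 and 6.16 in S1 L5. Where *Kcnc4* was found, its level was moderate. Over the cells with reads the mean in L4 was 4.89 ± 2.59 in V1 and 4.75 ± 2.05 in S1, in L5 it was 5.68 ± 1.65 and 6.11 ± 1.84, and the highest value was 9.31, in V1 L5. With all counts of a group pooled, *Kcnc4* made up 19.7 CPM of V1 L4 (95% Poisson interval 18.6 to 20.97) and 31.97 CPM of S1 L4 (30.4 to 33.6), against 39.7 CPM of V1 L5 (36.9 to 42.6) and 104.3 CPM of S1 L5 (99.8 to 108.97). The L5 cells were all of the first series, and in that series alone the L4 values were closer to V1 L5, at 35.4 CPM in V1 (33.1 to 37.9) and 36.998 CPM in S1 (34.5 to 39.7). In the second series they were 6.89 and 27.9 CPM. Such Poisson intervals and floors treat reads as independent and do not cover the spread between cells. The protocol has no molecular identifiers and copies made by PCR are counted again. For the sampling of molecules the intervals are therefore too narrow and the floors too low. Thinning to 250000 reads kept the order of the shares, with 23.8% and 41.2% of L4 cells in V1 and S1, and 60% and 66.7% of L5 cells.

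**Figure D1:**
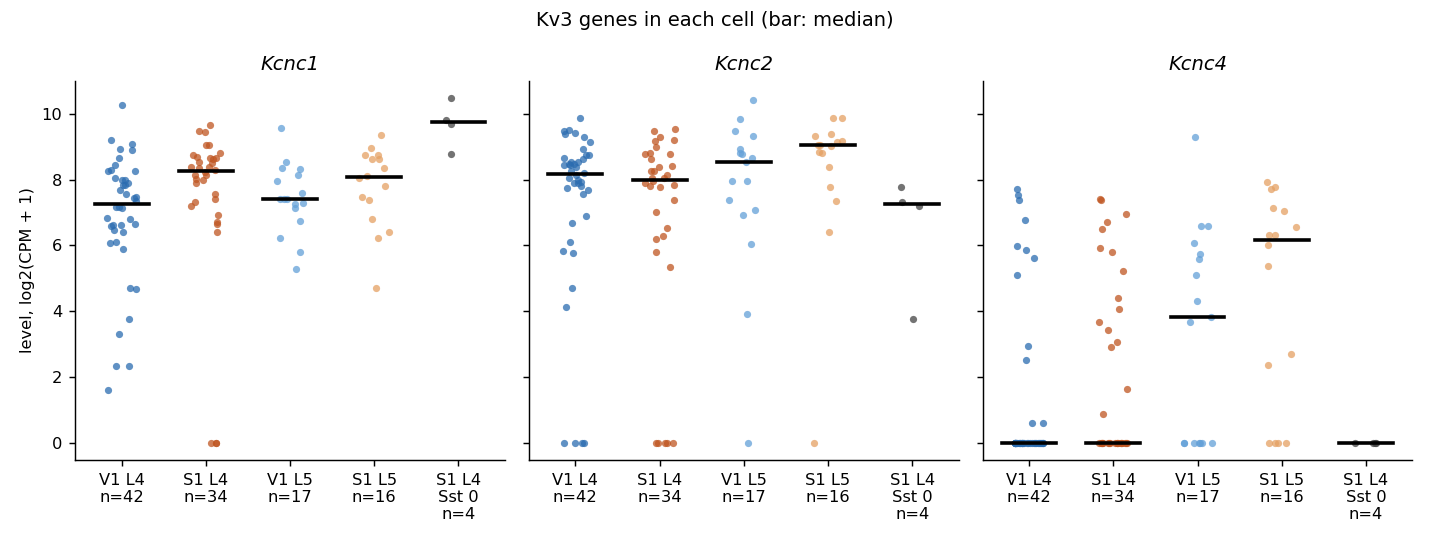
Level of *Kcnc1*, *Kcnc2* and *Kcnc4* in each cell, as log2(CPM + 1), by area and layer, with the 4 S1 L4 cells without an *Sst* read at the right. Each point is a cell and each bar the median of its group. *Kcnc1* and *Kcnc2* are high in nearly all cells with a few cells at 0, while *Kcnc4* has medians of 0 in both L4 groups and of 6.16 in S1 L5, and is at 0 in all 4 cells without *Sst* reads.

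Most SOM+ cells had reads of more than 1 member. All 3 members were counted in 47 cells (43.1%), exactly 2 in 52 cells, 1 in 9 cells and none in 1 cell. The share of cells with all 3 was 28.6% of V1 L4, 41.2% of S1 L4, 52.9% of V1 L5 and 75% of S1 L5, the same order as for *Kcnc4* alone. No L5 cell lacked all 3.

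Levels of different genes were compared per length, in the authors' RPKM values. *Kcnc1* and *Kcnc2* were close to each other, and both were far above *Kcnc4*. The median over all kept cells was 44.5 RPKM for *Kcnc1*, 49.7 for *Kcnc2* and 0 for *Kcnc4*. *Kcnc1* exceeded *Kcnc2* in 53 of the kept cells (48.6%, interval 38.9 to 58.4), so neither RNA led in SOM+ cells as a whole. Within L4 it did so in 18 of 42 V1 cells (42.9%, 27.7 to 59.0) and 22 of 34 S1 cells (64.7%, 46.5 to 80.3), and within L5 in 7 of 17 V1 cells (41.2%, 18.4 to 67.1) and 6 of 16 S1 cells (37.5%, 15.2 to 64.6). The share was highest in S1 L4, and its interval overlapped those of the other groups. In the 97 cells with reads of both, the log2 ratio of *Kcnc1* to *Kcnc2* ran from -7.76 to 5.07 around a median of -0.23. The lowest ratio was that of a V1 L4 cell with *Kcnc1* at 0.31 RPKM and *Kcnc2* at 67.7 RPKM. The ratio of the 2 RNAs, as read, thus varied widely between single cells. The part of RNA capture and PCR copies in this was not tested.

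**Figure D2:**
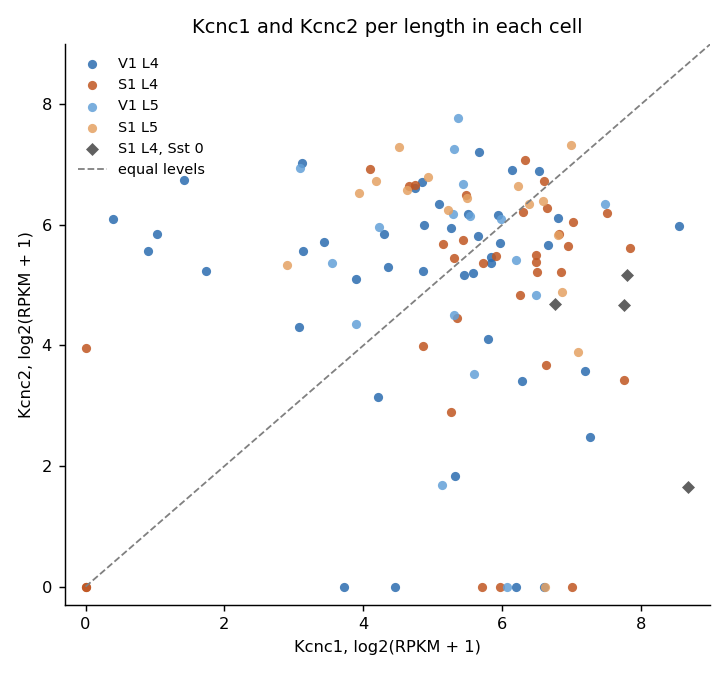
*Kcnc1* (x axis) and *Kcnc2* (y axis) per length in each cell, as log2(RPKM + 1), coloured by area and layer, with diamonds for the 4 S1 L4 cells without an *Sst* read. Kept cells lie on both sides of the dashed line of equal levels, 53 of them below it, and all 4 diamonds lie below it.

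As shares of the summed RPKM of the 3 members in a group, *Kcnc1* made up 47.1% of V1 L4 and 57.8% of S1 L4, but 37.4% of both V1 L5 and S1 L5. *Kcnc2* made up 46.6% and 35.5% in L4 of V1 and S1, and 49.2% and 46.4% in L5. *Kcnc4*, at 6.35% in V1 L4 and 6.73% in S1 L4, had a larger share in L5, with 13.4% in V1 and 16.3% in S1. These L4 shares are over both series, and all L5 cells were of the first. In the first series alone, V1 L4 means of *Kcnc1*, *Kcnc2* and *Kcnc4* were 31.3, 47.7 and 12.3 RPKM. Those of V1 L5 were 49.5, 65.2 and 17.7 RPKM. Within that series the *Kcnc1* share of V1 was thus not lower in L5, nor that of *Kcnc4* larger. In S1 L4 the first-series means were 58.1, 27.5 and 9.64 RPKM, and both shares differed from L5 as over both series. The most abundant of the 3 was *Kcnc2* in 52 cells, *Kcnc1* in 50 and *Kcnc4* in 6, none of the latter in S1 L5, and 1 cell had none of them. The medians of the shares in single cells put *Kcnc2* above *Kcnc1* in V1 L4, at 55.0% and 37.3%, where the pooled shares were nearly equal. They were 33.5% and 56.5% in S1 L4, 42.2% and 34.9% in V1 L5, and 51.6% and 30.6% in S1 L5.

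The first comparison was between areas within L4, where the study set S1 against V1. A member was called where the means of log2(CPM + 1) differed by 1 or more and each recording day with 2 or more cells on both sides gave the same sign, for at least 2 such days. None of the 3 members was called, beside 3.20% of the 9201 genes that passed the filter on low counts. *Kcnc1* was higher in S1 by 0.59 on the log2 scale, with an SD over 5 days of 1.32. It was higher in S1 on 4 of the 5 days, by between 0.61 and 1.58, and on day 3 the difference was -1.90. That day held 2 of the 3 S1 cells without *Kcnc1* reads. Among cells with *Kcnc1* reads alone, a choice made after seeing the data, the S1 cells were higher by 1.32 and on all 5 days, by between 0.72 and 2.82. That choice removes the lowest S1 values and none from V1. The difference was -0.42 for *Kcnc2*, with an SD over days of 2.34, and 0.84 for *Kcnc4*, with an SD of 3.22. Both had days of either sign, and neither difference exceeded the spread over days.

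Levels also differed between the 2 series, for some genes and areas about as much as between the areas. The median *Kcnc1* level of V1 L4 was 6.65 in the first series (n = 21) and 7.85 in the second (n = 21). That of S1 L4 was 8.07 in the first (n = 16) and 8.45 in the second (n = 18), so the S1 median was the higher in each series. For *Kcnc2*, the S1 L4 median was 6.77 in the first series and 8.41 in the second, against 8.04 and 8.21 in V1 L4, and the areas changed places between series. The share of V1 L4 cells with *Kcnc4* reads was 28.6% in each series, but their mean level was 6.83 ± 0.88 in the first and 2.94 ± 2.20 in the second, with 6 such cells each. In S1 L4 it was 5.15 ± 1.95 (7 cells) and 4.43 ± 2.18 (9 cells).

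In L5 the areas were compared over 4 days. None of the members was called, beside 12.7% of 6402 genes. S1 was higher by 0.33 for *Kcnc1* (SD over days 0.97), by 0.57 for *Kcnc2* (SD 1.51) and by 1.24 for *Kcnc4* (SD 1.42). The median difference of all 6402 genes was 0.24. *Kcnc4* was higher in S1 on 3 of the 4 days, by up to 3.01, with a difference of -0.17 on day 5. The other 2 members also had days of either sign.

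The layers were compared within the first series. In V1 none of the members was called, beside 18.5% of 6696 genes. L5 was higher than L4 by 1.04 for *Kcnc1*, by 0.51 for *Kcnc2* and by 1.39 for *Kcnc4*. Within the 2 days with at least 2 cells of each layer the *Kcnc1* differences were 0.09 and -0.06, so that the pooled value came from days on which only 1 layer was well sampled. The *Kcnc4* differences on these days were -4.52 and 5.48, which left its direction unsettled.

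In S1 all 3 members were higher in L5, by 1.22 for *Kcnc1*, 2.67 for *Kcnc2* and 2.33 for *Kcnc4*, while the median of all 6492 genes was higher by 0.27. *Kcnc1* was called, 1 of 3 members, beside 15.1% of genes. It was higher in L5 on all 3 days, by 2.12, 0.36 and 0.60 (SD 0.96). This call rested on the L4 cells without *Kcnc1* reads. The medians of the 2 layers differed by 0.01, the difference was 0.64 without day 3, and among cells with *Kcnc1* reads it was -0.29, with 2 of 3 days higher. Against the L4 cells of both series it was 0.30. The *Kcnc2* differences were 3.5 on day 3, 3.32 on day 4 and -1.21 on day 5 (SD 2.67). *Kcnc4* was higher by 3.01 on day 3 and 1.61 on day 5, and about equal on day 4 (SD 1.51). The *Kcnc2* medians were 9.05 in L5 and 6.77 in L4 of the first series, and those of *Kcnc4* were 6.16 and 0. The L5 cells had more detected genes than these L4 cells, 7572 against 6111 in the median, at total counts of 1119171 and 1095508. The part of this difference in the result was not tested.

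**Figure D3:**
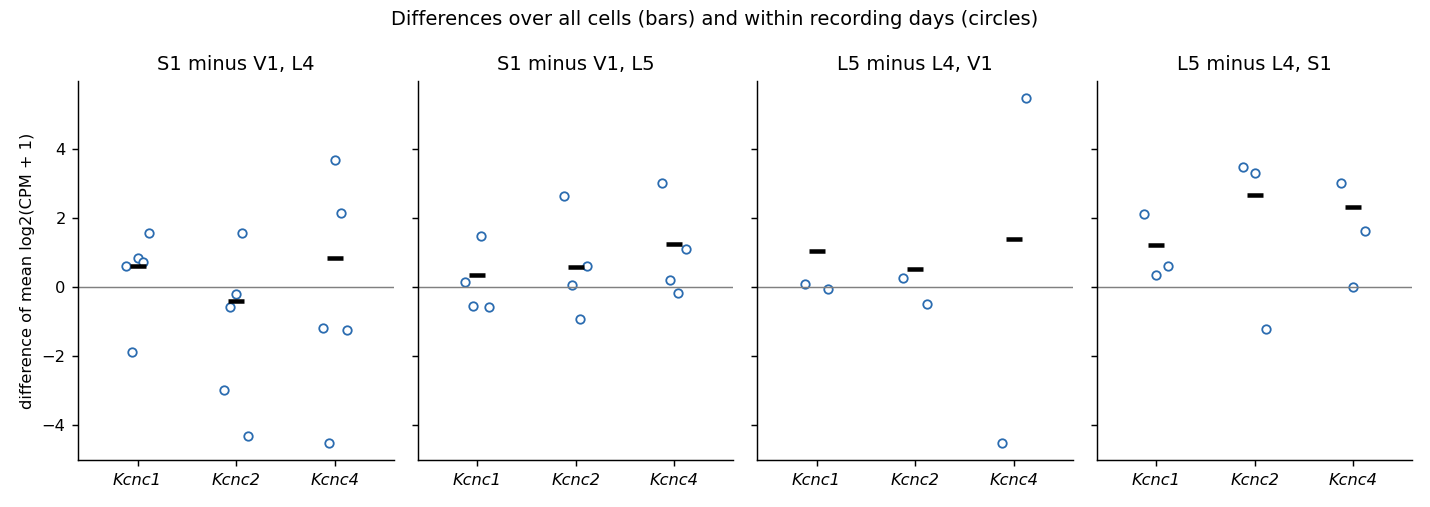
Differences of mean log2(CPM + 1) for the 3 members, between areas in L4 and L5 and between layers in V1 and S1. Bars are over all cells of a comparison and circles are single recording days with at least 2 cells on each side. In L5 minus L4 of S1 the 3 *Kcnc1* circles are above 0, at 0.36, 0.60 and 2.12, and *Kcnc4* has circles from -4.52 to 5.48 in L5 minus L4 of V1.

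*Pvalb*, which encodes the calcium buffer of fast-spiking basket cells, had reads in 18 of the 34 S1 L4 cells, 10 of the 42 V1 L4 cells, 7 of the 16 S1 L5 cells and 1 of the 17 V1 L5 cells. Its median level where found was 44.5, 16.7, 6.65 and 9.29 CPM. These cells also had *Sst* reads, and whether their *Pvalb* reads came from the cell itself was not tested. *Syt2*, a synaptic vesicle protein and defining marker of basket cells, had reads in 1 kept cell and in none of the S1 L4 or V1 L4 cells. The basket cell list held 6 genes, *Pvalb*, *Syt2*, *Tac1*, *Cox6a2*, *Reln* and *Itm2a*. They summed to between 14.6 and 2272 CPM in S1 L4 cells and to at most 2139 CPM in V1 L4 cells. In S1 L4 the pooled level of this list was 587 CPM in the cells with *Pvalb* reads and 982 CPM in those without. In the latter, *Pvalb*, *Syt2* and *Tac1* had no reads and *Cox6a2* had reads in 1 of 16 cells. Their 982 CPM thus came almost wholly from *Reln* and *Itm2a*.

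In S1 L4, *Kcnc1* was higher in cells with *Pvalb* reads. Their levels ran from 6.41 to 9.67 with a median of 8.58, and those of the 16 cells without ran from 0 to 8.70 with a median of 7.94. The groups overlapped, but all 3 cells without *Kcnc1* reads were on the side without *Pvalb* reads. The means were 8.45 and 6.37, a difference of 2.07, and the 2 days that could be compared, both of the second series and without any cell at 0, gave 0.47 and 1.35 (SD 0.62). *Kcnc1* was called, 1 of the 2 members that passed the filter on low counts, beside 21.7% of 6620 genes. Among cells with *Kcnc1* reads the difference was 0.60, between 8.45 ± 0.85 (n = 18) and 7.84 ± 0.71 (n = 13). The cells with *Pvalb* reads were also sequenced more deeply, with median total counts of 1674449 against 1095508 and 7520 against 5555 detected genes, and the median of all 6620 genes was higher in them by 0.38. With every cell thinned to 250000 reads and the *Pvalb* class taken from the thinned counts, the *Kcnc1* difference was 1.85.

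*Kcnc2* in S1 L4 was 7.33 on average with *Pvalb* reads and 6.26 without, a difference of 1.06, but on both days it was lower in the cells with *Pvalb* reads, with differences of -0.25 and -0.59. *Kcnc4* went the other way from *Kcnc1*. It had reads in 7 of 18 cells with *Pvalb* reads and in 9 of 16 without. The mean levels were 1.68 and 2.86, a difference of -1.17, and it was lower on both days, at -0.77 and -0.39. It did not pass the filter on low counts in this comparison and was not considered for a call.

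In V1 L4 and S1 L5 none of the members was called, beside 18.2% of 7405 genes and 26.7% of 3037 genes. In V1 L4 the cells with *Pvalb* reads (n = 10) were higher than the others (n = 32) by 0.37 for *Kcnc1* and 0.41 for *Kcnc2*, close to the median of all genes, 0.43. The *Kcnc1* differences were 1.82 on day 2, -1.0 on day 7 and -0.58 on day 8 (SD 1.52). The *Kcnc1* value depended on the setting. It was 1.14 with *Pvalb* at 10 CPM or more, 1.02 with at least 4000 detected genes and -0.16 without day 2. With cells thinned to 250000 reads it was 0.43, and 1.41 with the *Pvalb* class also taken from the thinned counts. *Kcnc4*, below the filter, differed by -0.20. In S1 L5 the difference for *Kcnc1* was 0.01 between 7 and 9 cells, with days at -1.19 and -0.30, that for *Kcnc2* 1.18 with days of either sign, and that for *Kcnc4* -0.41 with days of either sign. The single V1 L5 cell with *Pvalb* reads, 22 counts, had the highest *Kcnc1* level of its group, 9.57, with 1792 counts, and no *Kcnc4* read.

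**Figure D4:**
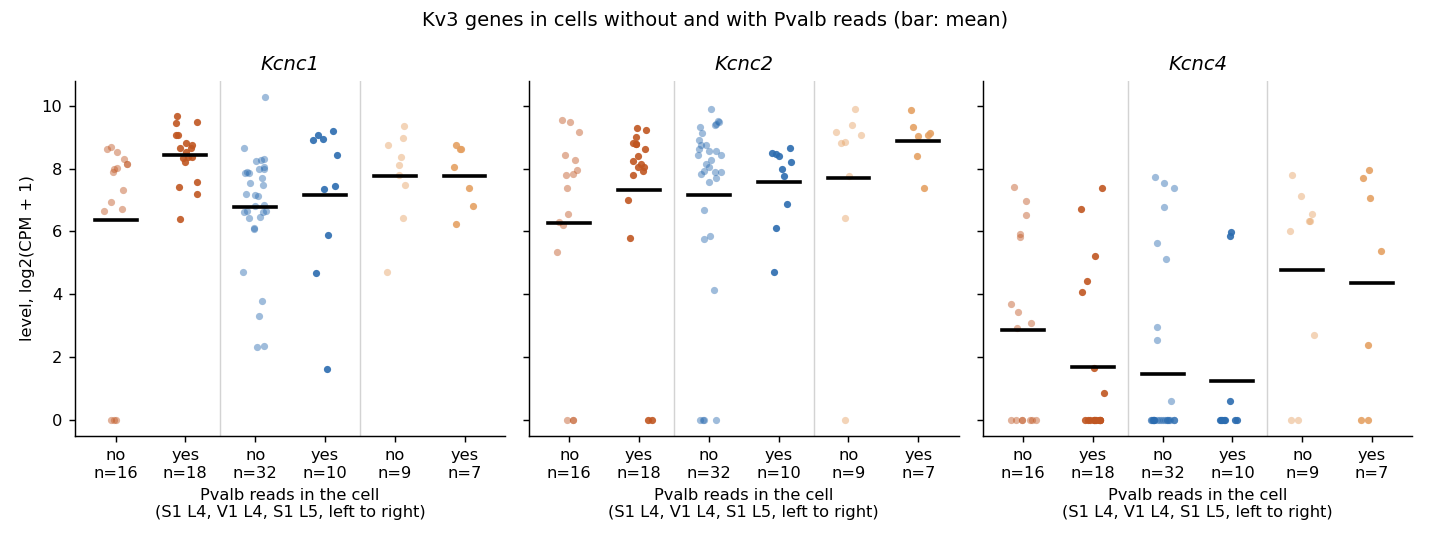
Level of the 3 members in cells without and with *Pvalb* reads, as log2(CPM + 1), in S1 L4, V1 L4 and S1 L5. Points are cells and bars are means. In S1 L4 the *Kcnc1* means are 6.37 and 8.45 and the 3 cells at 0 are all without *Pvalb* reads, whereas in S1 L5 the 2 bars are level.

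The 4 cells without an *Sst* read, all labelled S1 L4, stood out for *Kcnc1*. It was at 824, 1426, 895 and 443 CPM in them, or 9.69, 10.48, 9.81 and 8.79 on the log2(CPM + 1) scale. The first 3 values were above every one of the 34 SOM+ cells of S1 L4, and the last was above 28 of them. *Kcnc2* was at 7.31, 3.76, 7.77 and 7.21, each below the median of the SOM+ cells of S1 L4, 7.99. These levels were above 11, 5, 12 and 11 of the 34 SOM+ cells. The 5 SOM+ cells below 3.76 had no *Kcnc2* read, and the lowest SOM+ cell with reads was at 5.33. *Kcnc4* had no read in any of the 4 cells, whose depths would hide up to 2.69, 2.51, 1.04 and 9.77 CPM. *Kcnc1* was the most abundant member per length in all 4, and its median share of the summed RPKM was 88.1%, against 56.5% in the SOM+ cells of S1 L4. These cells had *Pvalb* counts of 844, 601, 2662 and 29, at total counts of 1113591, 1197275, 2889474 and 307046. The paper set apart 3 cells without SOM reads, which were fast-spiking and were assigned to a *Pvalb* type. The labels do not say which of the 4 cells here those are, so the 4 may not be of 1 type. Of the 15 genes of the fast-spiking list, 9 had reads in all 4 cells. Of these, 6 (*Nefh*, *Scn1a*, *Scn8a*, *Kcna1*, *Kcna2* and *Cplx1*) were also counted in at least 27 of the 34 SOM+ cells of S1 L4, *Pvalb* in 18, *Cox6a2*, a muscle-type subunit of cytochrome c oxidase, in 3, and *Erbb4*, the neuregulin receptor, in 2. The other 6 were *Acan*, in 3 of 4 cells and 3 of 34, *Syt2*, in 2 and 0, *Lgi2*, in 2 and 6, *Tac1*, in 1 and 0, *Scn4b*, in 1 and 9, and *Mme*, in 1 and 8. The cells came from 4 recording days, and having no *Sst* read is what set them apart, so no test was made.

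The fast-spiking list held 15 genes, of which between 5 and 8 passed the filter on low counts in a comparison. In S1 L4 against V1 L4, 1 of 8 was called, beside 3.20% of all genes: *Kcna2*, an axonal Kv1 channel of low threshold, higher in S1 by 1.77 with all 5 days higher. In L5, 1 of 7 was called, beside 12.7%, *Scn8a*, the sodium channel of the axon initial segment, higher in S1 by 1.62. Between layers of V1, 1 of 5 was called, beside 18.5%, *Scn1a*, a sodium channel of interneurons, higher in L5 by 1.86. None of 6 was called in S1, beside 15.1%. With *Pvalb* reads in S1 L4, 3 of 7 were called, beside 21.7%. These were *Pvalb* itself, which defines the split, *Nefh*, the heavy neurofilament of large axons, higher by 2.97, and *Kcna1*, the other axonal Kv1 channel, lower, at -1.43. The list in V1 L4 gave *Kcna2*, higher by 1.14 (1 of 6, beside 18.2%), and in S1 L5 *Cplx1*, a complexin of fast transmitter release, higher by 1.14 (1 of 5, beside 26.7%).

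Another list held 12 genes known to modify, carry or bind Kv3 channels or their mRNA. Neither area comparison called any of the 8 and 6 that passed the filter, beside 3.20% and 12.7% of all genes. In V1, L5 was higher for the kinase *Prkca* by 1.19 and lower for the anchor *Ank3*, at -1.36, which made 2 of 7 beside 18.5%. In S1, L5 was higher for *Prkcb* by 2.80, 1 of 6 beside 15.1%. Both kinases are protein kinase C isoforms, enzymes that phosphorylate Kv3 subunits. In S1 L4 cells with *Pvalb* reads, *Prkcb* was higher by 1.15 and *Fmr1*, whose product binds *Kcnc1* mRNA, by 2.18, which made 2 of 6 beside 21.7%. In V1 L4 the casein kinase 2 subunit *Csnk2b* was higher by 2.04, 1 of 6 beside 18.2%, and in S1 L5 none of 4 was called, beside 26.7%.

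Over the kept cells, with levels centred on the mean of each area and layer, the members did not follow one another. Pearson's r was 0.11 for *Kcnc1* and *Kcnc2*, -0.03 for *Kcnc1* and *Kcnc4* and 0.01 for *Kcnc2* and *Kcnc4*. *Kcnc1* and *Pvalb* had r = 0.30, with *Pvalb* at 0 in most cells, and *Kcnc2* and *Pvalb* 0.06. Cells share depth, and r with the number of detected genes was 0.26 for *Kcnc1*, 0.35 for *Kcnc2* and 0.11 for *Kcnc4*. Among 9993 genes, those most like *Kcnc1* were *Ppp2r2c* (r = 0.43), *Ubxn4*, *Cdk16*, *Hgs* and *Pdxp*, those most like *Kcnc2* were *Pnkd* (0.52), *Lamtor1*, *Trim32*, *Cct7* and *Dnaja1*, and those most like *Kcnc4* were *Cisd3* (0.40), *Chac2*, *Atox1*, *Ubxn2a* and *Dcaf12l1*. These are descriptions over cells, which are not replicates, and no p-value was computed.

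Marker lists named for other cells differed between the groups, and those whose pooled level differed by more than 2-fold are given here. The VIP list was *Vip*, *Calb2* and *Crh*, and *Calb2* also names an *Sst* type. The paper assigned V1 L4 cells preferentially to that type and S1 L4 cells rarely, so this list does not mark VIP interneurons alone. In L4 the oligodendrocyte markers were at 1085 CPM in S1 and 240 CPM in V1, and the VIP list at 18.9 and 133.4 CPM. In L5 oligodendrocyte markers were at 693 CPM in S1 and 209 CPM in V1, microglia markers at 40.9 and 239 CPM, and the basket cell list at 578 and 241 CPM. Between L5 and L4 of V1 the basket cell list was at 241 and 773 CPM, astrocyte markers at 130.1 and 469 CPM and microglia markers at 239 and 99.8 CPM. Between L5 and L4 of S1, where *Kcnc1* was called, VIP markers were at 296 and 32.6 CPM. With and without *Pvalb* reads in S1 L4, where *Kcnc1* was also called, microglia markers were at 56.3 and 121.6 CPM. In V1 L4 this split gave 49.2 and 167.4 CPM for VIP and 533 and 121.5 CPM for oligodendrocyte markers, and in S1 L5 it gave 308 and 884 CPM for the basket cell list, 445 and 127.5 CPM for VIP and 61.1 and 18.1 CPM for microglia markers. Excitatory markers differed by more than 2-fold in all comparisons but that between areas in L5, at pooled levels of at most 26.6 CPM. The part of these lists in the differences was not tested.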

How the data were processed

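Cells of SOM-Cre/Ai9 mice were profiled by Patch-seq with a Smart-seq2-based protocol. Per the labels and methods, the authors aligned single-end reads of 75 bases to mm10 with STAR 2.4.2a and deposited read counts per gene, without normalization, and RPKM values made with rpkmforgenes and RefSeq gene models. The counts gave every result except the comparisons per length, which used the deposited RPKM values. Of 24490 gene entries, those with one symbol were summed, giving 23998 symbols, and each member had 1 entry.

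Levels are log2(CPM + 1), where CPM is scaled to the total count of a cell, with a pseudocount of 1, which understates differences of low genes. A gene was compared only where 10 or more of the cells held 32 or more counts of it. The names of the 15 fast-spiking genes, the 12 modifiers and the markers, and for each member the 5 genes with the highest centred r, were the rule for genes named. The members and lists were chosen with earlier results of these data known. Alternatives changed the scaling (TMM of edgeR 4.0.16, size factors of DESeq2 1.42.0), pseudocount, filters, depth, *Pvalb* threshold and recording days. The calling function was checked on simulated counts. Sequences are from GENCODE M21 on GRCm38. Python 3.11.15, pandas 2.3.3, SciPy 1.17.1 and R 4.3.3 were used. Electrophysiology, morphology and reference cell types were not analysed here, and 2 further genes are not reported here.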

Additional observations from a re-analysis of the deposited data

Results flagged for a closer look

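The relation of *Kcnc1* to *Pvalb* reads pointed opposite ways within recording days in the 2 layers of S1. In S1 L4 the difference between cells with and without *Pvalb* reads was 2.07 on the log2(CPM + 1) scale, and both days with enough cells were positive, at 0.47 and 1.35. In S1 L5 it was 0.0054, and both such days were negative, at -1.19 and -0.30. The S1 L4 days were of the second series, with at least 3 cells a side, and the S1 L5 days of the first, with 2 and 3 cells. Layer and series therefore cannot be told apart here, and the difference between the layers was not tested.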

How the results depend on the processing

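Of 357 recomputed differences of the members, 320 moved by less than the spread over recording days. That spread is an SD over 2 to 5 days and can exceed the difference itself, as at 7.07 for *Kcnc4* between layers of V1. The count of 320 is therefore no measure of stability. The sign changed in 24 of the 357. The *Kcnc1* call between layers of S1 was the only called value among these, at -0.29 among cells with *Kcnc1* reads, a choice made after seeing the data, and as a difference of medians it was 0.011, on the RPKM scale 0.73 and with a pseudocount of 10 0.64, under the size needed for a call. The *Kcnc1* difference by *Pvalb* reads in S1 L4 was 1.44 with a pseudocount of 10, 0.64 for medians, 0.91 within days and 0.60 among cells with *Kcnc1* reads. It could not be called without day 7 or day 9, which left 1 day. For *Kcnc2* in that split the values were 0.79, 0.61 and -0.42 for the first 3 of these settings, 2.12 with at least 4000 detected genes, 0.25 with *Pvalb* at 10 CPM or more, and 0.61 to 1.47 with each day left out. For *Kcnc4* they were -0.54, -2.99 and -0.58, then -0.87 on the RPKM scale, -2.13 with *Pvalb* at 10 CPM or more, -1.60 with the *Pvalb* class also taken from thinned counts (-1.04 by thinning alone), and -1.47 to -0.60 with each day left out. In S1 L5, *Kcnc1* was at -0.75 within days and at -0.79 to 0.57 with each day left out, and *Kcnc4* at -2.38 with *Pvalb* at 10 CPM or more. Between layers of V1, *Kcnc1* was at 0.83 with a pseudocount of 10, 0.87 thinned, 0.76 for medians, 0.015 within days, 0.56 against L4 of both series and 0.59 to 1.33 with each day left out. *Kcnc2* was at 1.07 with at least 4000 detected genes and -0.11 within days. For *Kcnc4* between layers of S1 the medians differed by 6.16. The cause of these shifts was not tested. A pseudocount of 10 lowered the number of genes called in each of the 7 comparisons, to 77 of 294 and 382 of 813 between areas in L4 and L5, 549 of 1242 and 453 of 981 between layers in V1 and S1, and 578 of 1437, 531 of 1349 and 458 of 810 by *Pvalb* reads in S1 L4, V1 L4 and S1 L5. Without the filter on genes, 1490 were called between layers of S1 and 3122 by *Pvalb* reads in S1 L5. Of the 5 genes most like a member, between 0 and 2 recurred under Spearman's rho, thinning or, for *Kcnc4*, no centring. Cell numbers pair no cells between groups, and recording days served for comparisons within days. Depth set the limit of detection for *Kcnc4*, between 1.01 and 30.6 CPM over the cells without its reads.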
